A study of Mus musculus with 8 samples.

Results

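The tetraspanin family was examined in the RNA-Seq libraries of Notch3IC and Control ID8 IP2 cells. Members were the symbols made of Tspan and a number, together with Cd9, Cd37, Cd53, Cd63, Cd81, Cd82, Cd151, Upk1a, Upk1b, Prph2 and Rom1, which gave 31 of the 23284 mouse gene symbols in the deposited count tables. The family was chosen by the counts of Tspan18, which were far higher in Notch3IC cells than in Control cells, so the difference in Tspan18 between these groups is described here without a test and is left out of every count of members.

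ID8 IP2 is a mouse ovarian surface epithelial tumor line that had been passaged through the peritoneum of mice, and the cells used here also carried a luciferase and mCherry vector (FUW-luciferase-mCherry). Notch3IC cells were infected with a lentiviral pCCL vector for an HA-tagged Notch3 intracellular domain followed by an IRES and GFP, which signals without ligand or cleavage of the receptor. Control cells were infected with the empty pCCL vector, which is described without GFP. Each of Sets 1 to 4 came from its own lentiviral infection and holds 1 Notch3IC line and 1 Control line, so that each group has 4 libraries of polyadenylated RNA. Mycoplasma, which the methods give as probable for the lines of both groups, limits them as a model, and the expression of the insert is set by the vector and not by the Notch3 gene's own promoter. Library totals ranged from 19013578 to 28208072 counted reads for Control cells and from 15524262 to 27107061 for Notch3IC cells.

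Tetraspanins are small proteins that cross the cell membrane repeatedly, with a larger outer loop that binds partner proteins. They gather integrins, immunoglobulin-type receptors, growth factor receptors and membrane proteases into clusters on the plasma membrane, and several are abundant on exosomes and lysosomes. One subgroup, the TspanC8 tetraspanins, carries the protease Adam10, which makes a cleavage of Notch receptors at the cell surface, and other members are used as markers of epithelia, leukocytes or photoreceptors.

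The Notch3 gene, whose reads come from the insert as well as from the cell's own gene, was at 1.66, 1.74, 3.04 and 1.80 CPM (read counts scaled to library size) in Control cells of Sets 1, 2, 3 and 4, whereas Notch3IC cells of these sets had 185, 20.03, 395 and 250. Every Notch3IC library was above every Control library, and Set 2 had by far the lowest Notch3IC value. Heyl, a target gene of Notch signaling, was at 92.4, 9.23, 294 and 168 CPM in the same Notch3IC libraries and at no more than 0.085 in the Control libraries. Set 1 stood apart in another way. A test for differences between sets called 2687 of the 12430 genes tested, and without Set 1 it called 2 of 12488. Several results that rest on these sets are therefore also given without them.

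Of the 31 members, 24 passed the filter on low counts (edgeR's filterByExpr) and were tested, and 23 of these remain when Tspan18 is set aside. Tspan18 passed the filter only through its Notch3IC libraries. Cd37, a leukocyte tetraspanin, Prph2, a protein of photoreceptor disc rims, and Tspan10 had 0 counts in all 8 libraries. Cd53, Tspan1, Tspan32 and Upk1a had counts but did not pass, with between 0 and 13 counts in any library.

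Tspan18 is a member that has been linked to calcium entry through Orai1 in endothelial cells. It had 1, 0, 0 and 0 counts in Control cells of Sets 1, 2, 3 and 4, against 476, 200, 137 and 537 counts in Notch3IC cells. The groups were thus separated in every set, with the Control libraries at or next to 0. In Set 1 the ratio of Notch3IC to Control, scaled by library size, was 537 (95% exact counting interval 95.9 to 21300). Against a floor of 3 counts in the Control library, Tspan18 was at least 81.8-fold higher in Set 2, at least 43.9-fold higher in Set 3 and at least 191-fold higher in Set 4. Summed over the sets, 1 read stood against 1350 (ratio 1460, interval 261 to 57600), and these intervals and floors cover counting error only. The fitted log2 fold change was 9.91, a value that depends on the small count that edgeR adds to libraries at 0 and is no bound.

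The order of the Notch3IC libraries differed between Tspan18 and Notch3. In CPM, Tspan18 was at 22.8 in Set 1, 12.6 in Set 2, 5.40 in Set 3 and 19.4 in Set 4. Set 3, with the highest Notch3 and Heyl, had the lowest Tspan18, and Set 2, with the lowest Notch3 and Heyl, had more Tspan18 than Set 3. The highest Notch3IC library exceeded the lowest 4.23-fold for Tspan18, 19.7-fold for Notch3 and 31.8-fold for Heyl. For each 1000 reads on Notch3 there were 123, 627, 13.7 and 77.7 reads on Tspan18 in Sets 1 to 4. With 4 libraries no correlation was computed.

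**Figure D1:**
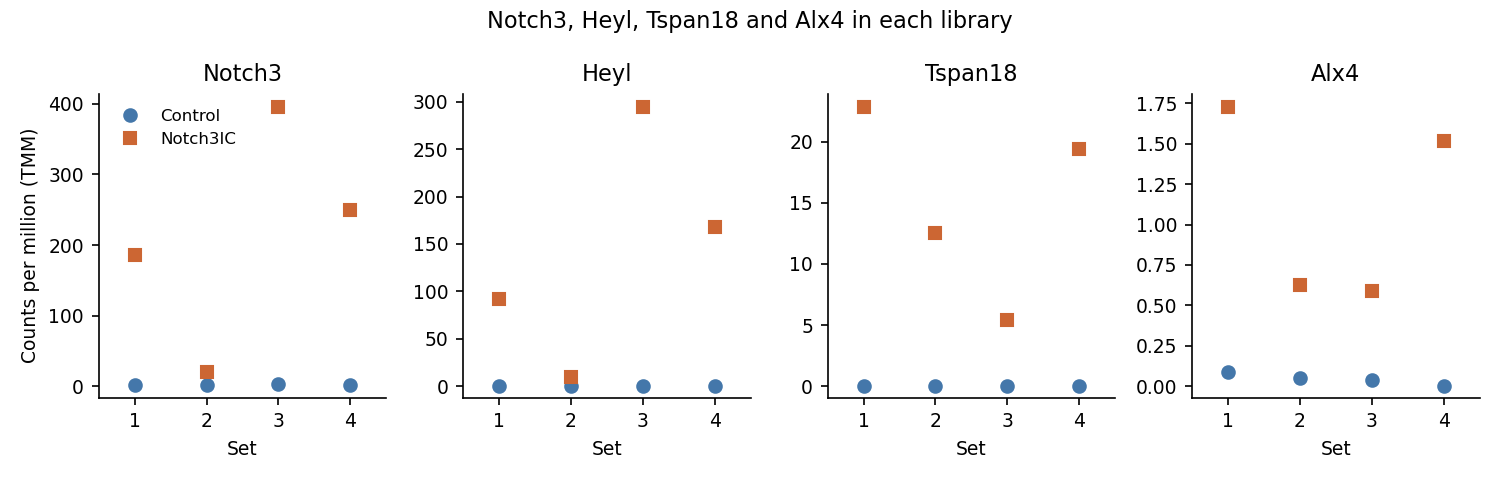
CPM (TMM-scaled library sizes, linear axes that differ between panels) of Notch3, Heyl, Tspan18 and Alx4 against set number, with 1 Control (circle) and 1 Notch3IC (square) library per set. Among the Notch3IC libraries Notch3 and Heyl are highest in Set 3 and lowest in Set 2, whereas Tspan18 is highest in Set 1 and lowest in Set 3, and Alx4 is higher in Sets 1 and 4 than in Sets 2 and 3.

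Tspan18 lies on the minus strand of mouse chromosome 2 (GRCm38, chr2:93201760-93334505), with 14 exon blocks and 8175 exon bases that overlap no other annotated gene's exons. Its nearest protein-coding neighbours were looked at on each side. Trp53i11, a gene induced by p53 that ends 1 base from the 3′ end of Tspan18 on the opposite strand, had 0, 0, 1 and 1 counts in Sets 1 to 4 of the Control lines and 3, 0, 4 and 2 in the Notch3IC libraries. Syt13, a synaptotagmin, had between 0 and 6 counts in any library, and Prdm11 had between 0 and 2, so that these neighbours were nearly silent in both groups. Cd82, another tetraspanin, lies 84.6 kb away and was expressed in all libraries without a detectable difference (log2 fold change -0.10, 95% interval -1.01 to 0.82). Alx4, a homeobox transcription factor gene 308 kb away on the same side, had 2, 1, 1 and 0 counts in the Control libraries and 36, 10, 15 and 42 in the Notch3IC libraries. All its Notch3IC libraries were above all its Control libraries. Like Tspan18, Alx4 passed the filter on low counts only through its Notch3IC libraries, so this difference is described without a test. The fitted log2 fold change was 4.58, a value that depends on the few Control reads and is no bound. It stayed between 3.92 and 5.09 when libraries or sets were left out, with or without the set number as a block. In CPM its Notch3IC libraries were at 1.73, 0.628, 0.591 and 1.52 in Sets 1 to 4. Sets 1 and 4 were the higher pair, as for Tspan18, and at these few reads the order within each pair was not detectable. Gm10803, the remaining neighbour, is not analysed here.

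Among the other 23 members, Tspan12 rose and Upk1b fell in Notch3IC cells. Calls needed an adjusted p (edgeR quasi-likelihood test, condition alone, adjusted over all genes tested) under 0.1 together with a log2 fold change of 1 or more in either direction. The member called higher is 4.35% of 23, beside 3.40% of all genes tested, and the member called lower is also 4.35%, beside 0.740% of all genes tested, so the share called higher stood near that of all genes. The median log2 fold change of the 23 was 0.10, beside -0.01 over all genes tested, with 14 members above 0 and 9 below. In size it was under 0.5 for 15 members, which is 65.2%, beside 81.0% of all genes tested. An unadjusted p under 0.05 was found for 6 members, or 26.1%, beside 18.4% of all genes. Groups without overlap were found for Tspan12 and Tspan3, both higher in Notch3IC cells (8.70%, beside 7.08% of all genes), and for Tspan33 and Upk1b, both lower (8.70%, beside 3.75%).

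With the set number added to the fit as a block, 2 members were called higher (8.70%, beside 5.19% of all genes) and 2 lower (8.70%, beside 2.53%). Tspan12 and Tspan7 were higher, and Upk1b and Tspan8 lower. DESeq2, with condition alone, called Tspan12 and Tspan7 higher (7.69% of the 26 members it tested, beside 5.07% of its 13958 genes) and Upk1b and Tspan33 lower (7.69%, beside 1.38%). At the adjusted p alone, without a limit on the fold change, the block gave 4 members higher, which were Tspan12, Tspan7, Cd63 and Tspan3 (17.4%, beside 14.9% of all genes), and 4 lower, which were Upk1b, Tspan8, Tspan33 and Tspan5 (17.4%, beside 12.1%). At the adjusted p alone these shares stood close to those of all genes. With 1 set left out, the block's adjusted p reached 0.123 for Tspan12, 0.226 for Tspan7, 0.258 for Cd63 and 0.222 for Tspan3. It reached 0.172 for Upk1b, 0.167 for Tspan8, 0.221 for Tspan33 and 0.133 for Tspan5. The block called none of the 23 in either direction without Set 1 or without Set 3, and only Tspan12 without Set 4. Calls fell over all genes as well, to 46 higher and 23 lower of 12488 without Set 1, 59 and 22 of 12418 without Set 3, and 129 and 30 of 12378 without Set 4, from 645 and 315 with all sets. With condition alone, Tspan12 and Upk1b were called without Set 1 and without Set 2, where Tspan7 was added, and leaving out Set 3 or Set 4 left no member called, with 1 of 12418 and 0 of 12378 genes called in all.

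**Figure D2:**
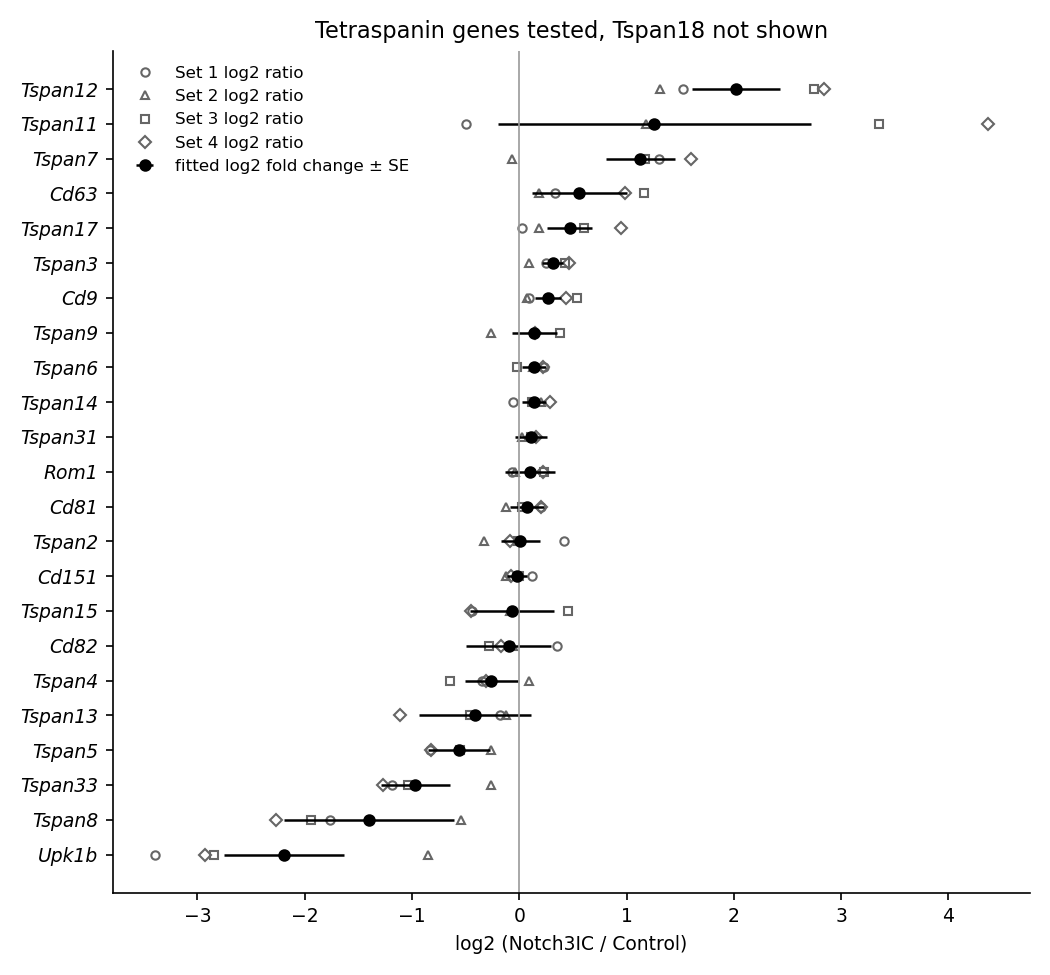
Log2 ratio of Notch3IC to Control for the 23 tested members other than Tspan18, in order of the fitted log2 fold change (filled circle ± standard error, condition alone), with the log2 ratio within each set as open symbols (pseudocount 0.5). Tspan12 lies farthest to the right with all sets above 0, Upk1b farthest to the left with all sets below 0, and most members lie within 0.5 of 0.

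Tspan12 serves as a partner of the Wnt receptor Fzd4 in Norrin signaling, best known from the growth of retinal vessels. It was at 143.8, 76.4, 46.9 and 49.2 normalized counts in Sets 1 to 4 of the Control lines and at 414.9, 190.5, 318.2 and 354.8 in the Notch3IC libraries (a normalized count is a read count scaled to the mean library size). Every Notch3IC library was above every Control library, and the lowest Notch3IC value was in Set 2. The mean rose from 79.1 ± 45.2 to 319.6 ± 94.9 (SD, n = 4), a 4.05-fold rise (log2 fold change 2.02 ± 0.41, SE, adjusted p = 0.0392). The call was lost without any 1 of the 4 libraries of Sets 3 and 4, where the adjusted p lay between 0.104 and 0.133, while the log2 fold change stayed between 1.83 and 2.02. Fzd4 itself had a log2 fold change of 0.19 (95% interval -0.50 to 0.89), the co-receptor Lrp5 had 0.30 (-0.14 to 0.74), and the ligand gene Ndp had 0 counts.

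Upk1b encodes uroplakin 1b, a tetraspanin of the membrane plaques of the urothelium that is also made by mesothelium. It was at 2751, 3732, 5765 and 4910 normalized counts in Sets 1 to 4 of the Control lines and at 259.5, 2068, 800.1 and 643.8 in the Notch3IC libraries. All Notch3IC libraries were below all Control libraries, and Set 2 showed the smallest gap. The mean fell from 4289 ± 1322 to 942.7 ± 783.5 (SD, n = 4), a 4.57-fold fall (log2 fold change -2.19 ± 0.56, SE, adjusted p = 0.0762). Within sets the log2 ratio was -3.40, -0.85, -2.85 and -2.93. The call was lost without the Control library of Set 2 (adjusted p = 0.114) and without any 1 library of Sets 3 and 4 (0.190 to 0.232). Without the Notch3IC library of Set 2 the log2 fold change was -2.92 (adjusted p = 0.00629), and without Set 2 it was -2.97 (adjusted p = 0.0177).

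Tspan7 and Tspan8 were not called by edgeR with condition alone over all libraries but were called by edgeR with the set block. Tspan7, a tetraspanin of neurons that guides receptor trafficking, was at 104.1, 90.7, 100.5 and 83.3 normalized counts in the Control libraries and at 257.2, 86.5, 227.1 and 253.4 in the Notch3IC libraries. The Notch3IC library was well above its Control in Sets 1, 3 and 4, whereas the Notch3IC library of Set 2 lay among the Control libraries. With condition alone it gave a log2 fold change of 1.13 ± 0.32 (SE, adjusted p = 0.104), and with the block 1.05 (adjusted p = 0.0584). It was also called with condition alone without Set 2 (1.36, adjusted p = 0.00848, edgeR) and by DESeq2 over all libraries (1.11, adjusted p = 0.0141).

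Tspan8, a tetraspanin of epithelia and of exosomes, was at 346.0, 2298, 2391 and 2233 normalized counts in the Control libraries and at 101.8, 1578, 623.5 and 461.3 in the Notch3IC libraries. The Control library of Set 1 lay far below the other Control libraries, so the groups overlapped, although the Notch3IC library was the lower of the pair in 4 of 4 sets. Set by set its log2 ratio was -1.76, -0.54, -1.94 and -2.27. Condition alone gave a log2 fold change of -1.40 ± 0.79 (SE, adjusted p = 0.399), and the block gave -1.62 (adjusted p = 0.0343). Without Set 2 these values were -2.06 (adjusted p = 0.230) and -2.03 (adjusted p = 0.000259).

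**Figure D3:**
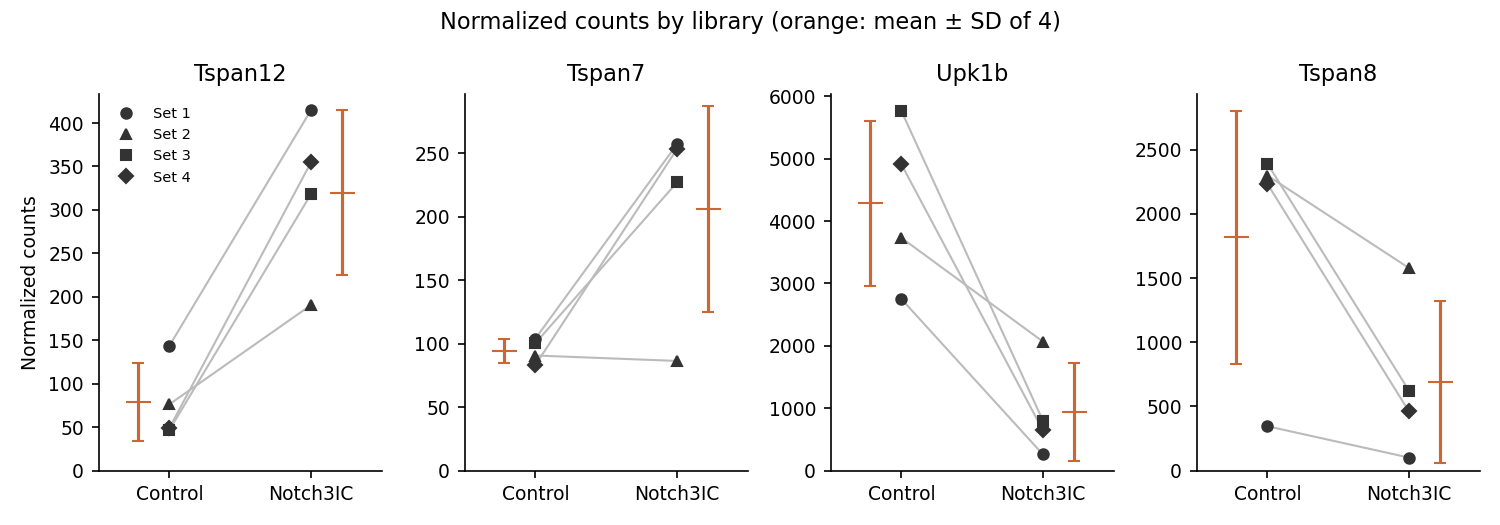
Normalized counts (linear axes from 0) of Tspan12, Tspan7, Upk1b and Tspan8 in the Control and Notch3IC library of each set, joined by lines, with the mean ± SD of 4 libraries beside each group. Tspan12 is higher and Upk1b and Tspan8 are lower in Notch3IC in all sets, and Set 2 has a flat line for Tspan7.

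The promoters of members were searched for the letters TGGGAA, the core of the site bound by Rbpj, which carries Notch intracellular domains to DNA, and for the longer GTGGGAA, which contains it, on both strands. RefSeq promoter windows (GRCm38.p6, from 250 bases before the start to 50 after it) matched 29 of the 31 members with 39 promoters, and Tspan18 and Upk1b had no entry. TGGGAA was found in 16 of the 39 (41.0%), beside 25.6% of 32851 promoters in all, and GTGGGAA in 3 of the 39 (7.69%), those of Tspan12, Cd9 and Tspan11, beside 6.38%. The promoter of Tspan12, on the minus strand at chr6:21852484-21852783, is shown because this gene rose, and that of Tspan8, on the plus strand at chr10:115817034-115817333, because this gene was lower in all sets. Capitals mark TGGGAA or its reverse complement TTCCCA, at bases 20 and 256 of the Tspan12 window, and the Tspan8 window holds neither.
Tspan12: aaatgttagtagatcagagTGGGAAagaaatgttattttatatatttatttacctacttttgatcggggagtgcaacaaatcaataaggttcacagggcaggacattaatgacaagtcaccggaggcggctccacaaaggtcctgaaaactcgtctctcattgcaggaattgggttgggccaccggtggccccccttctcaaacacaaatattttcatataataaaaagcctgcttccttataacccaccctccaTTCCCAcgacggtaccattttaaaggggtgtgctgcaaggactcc
Tspan8: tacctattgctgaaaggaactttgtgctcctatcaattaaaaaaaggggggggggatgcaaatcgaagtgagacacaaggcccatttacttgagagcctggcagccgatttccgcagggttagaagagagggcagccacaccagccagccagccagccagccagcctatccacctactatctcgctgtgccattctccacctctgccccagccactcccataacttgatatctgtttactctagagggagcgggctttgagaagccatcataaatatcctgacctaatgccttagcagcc
A match is a string of letters only, and binding at these promoters was not measured. Matches on both strands, as at Tspan12 and Cd63, were found in 1.81% of all promoters. The window of Tspan7, called higher with the block, held no match, and that of Prph2, which had no counts, held 1. The printed windows were picked after the values were seen and do not show whether matches go with the direction of change.

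Among the tetraspanins best known from adhesion and vesicles, 9 of 10 listed were tested and none was called with condition alone (edgeR, and none by DESeq2), beside 3.40% of all genes higher and 0.740% lower. An unadjusted p under 0.05 (edgeR) was found for 1 of the 9 (11.1%), beside 18.4% of all genes. The block called 1 of them, Tspan8, lower, beside 2.53% of all genes. Their median log2 fold change was 0.07. Cd151, which binds laminin-binding integrins, was at 6032, 6701, 7147 and 6471 normalized counts in the Control libraries and at 6555, 6163, 7135 and 6138 in the Notch3IC libraries. These values overlapped fully, and the log2 fold change of -0.02 had a 95% interval of -0.23 to 0.19. Cd81, a partner of the immunoglobulin-type protein Igsf8, was at 3852, 5409, 5906 and 4325 in Control and 4433, 4978, 6015 and 4970 in Notch3IC (log2 fold change 0.07, interval -0.29 to 0.42). Cd9, known from the fusion of egg and sperm, had a log2 fold change of 0.27 (interval 0.00 to 0.55, adjusted p = 0.269), with the Notch3IC library higher in 4 of 4 sets. Cd63, a protein of lysosomes and exosomes, was at 4350, 2057, 1303 and 1278 in Control and 5459, 2327, 2911 and 2531 in Notch3IC. Its groups overlapped because Set 1 was high in both, with a log2 fold change of 0.56 (adjusted p = 0.564) with condition alone and 0.66 (adjusted p = 0.0683) with the block.

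Tspan4, a protein of the migration tracks called migrasomes, was at 5816, 5003, 4138 and 3626 normalized counts in Control cells and 4574, 5331, 2636 and 2932 in Notch3IC (log2 fold change -0.26, interval -0.83 to 0.31). Tspan31 was at 2708, 3583, 3820 and 3668 in Control and 2968, 3662, 4129 and 4110 in Notch3IC (log2 fold change 0.11, interval -0.22 to 0.44). Neither gene separated the groups. The annotation places 29.2% of the exon bases of Tspan31 on exons of Cdk4, 13.4% of those of Tspan4 on exons of Chid1 and 10.7% of those of Cd9 on exons of Gm26728, each on the opposite strand, and whether the counting used strand is not given in the sources used here. Tspan3 was higher in 4 of 4 sets by a small amount, from 2821 ± 258.0 to 3494 ± 312.8 (SD, n = 4), without overlap (log2 fold change 0.31, adjusted p = 0.150 with condition alone and 0.0532 with the block). The remaining members, Tspan2, Tspan6, Tspan9, Tspan13, Tspan11 and Rom1, gave adjusted p-values of at least 0.541, and their log2 fold changes lay between -0.41 for Tspan13 and 1.26 for Tspan11. The Tspan11 value rested on Set 2, since it was 3.47 without the Control library of that set and -0.63 without the Notch3IC library. Tspan13 was lower in the Notch3IC library of 4 of 4 sets. It gave -0.05 without the Set 2 Control library, -0.99 without the Set 2 Notch3IC library and -0.63 without the whole of Set 2.

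TspanC8 tetraspanins, which carry Adam10 to the cell surface, were examined as a subgroup since Adam10 cleaves Notch receptors, although the Notch3 insert needs no cleavage. Of 6 listed, 5 were tested and none was called with condition alone (edgeR, beside 3.40% of all genes higher and 0.740% lower), and the median log2 fold change was -0.07. An unadjusted p under 0.05 was found for 1 of the 5, beside 18.4% of all genes. DESeq2 called 1 of the 5, Tspan33, lower, beside 1.38% of its genes. Tspan5 was at 1654, 2952, 2479 and 2630 normalized counts in Control cells and 928.3, 2469, 1697 and 1485 in Notch3IC. The Notch3IC library was the lower of the pair in 4 of 4 sets while the groups overlapped, with a log2 fold change of -0.56 (adjusted p = 0.346) with condition alone and -0.61 (adjusted p = 0.0297) with the block. Tspan33, known from red cell development, was at 64.5, 33.4, 40.2 and 37.3 in Control and 27.96, 27.8, 19.3 and 15.2 in Notch3IC, lower without overlap but at few reads (log2 fold change -0.97, adjusted p = 0.150 with condition alone and 0.0517 with the block).

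The other TspanC8 members pointed in mixed directions. Tspan14 was at 430.3, 448.9, 450.8 and 382.9 normalized counts in Control cells and 412.7, 517.2, 489.2 and 469.7 in Notch3IC (log2 fold change 0.14, interval -0.11 to 0.39). Tspan17 was at 105.1, 106.2, 116.8 and 84.8 in Control and 107.4, 120.2, 177.5 and 164.7 in Notch3IC (log2 fold change 0.47, adjusted p = 0.291). Tspan15 was at 200.3, 409.5, 377.1 and 503.4 in Control and 147.6, 383.9, 516.8 and 367.5 in Notch3IC (log2 fold change -0.07, interval -0.96 to 0.81). For Tspan17 the 2 highest libraries were the Notch3IC libraries of Sets 3 and 4, and for Tspan15 the groups overlapped widely. Adam10 was at 5785, 10010, 7671 and 6936 in Control and 5803, 9108, 8551 and 7909 in Notch3IC (log2 fold change 0.05, interval -0.40 to 0.49), so that a difference in the protease gene was not detectable.

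Levels were compared between members as CPM per kilobase of exon. In Control cells Cd151 led with 103.0 ± 7.27 (SD, n = 4), followed by Tspan4 with 91.4 ± 19.0, Upk1b with 88.0 ± 27.1, Cd81 with 72.5 ± 14.1 and Tspan31 with 67.3 ± 9.79. Neighbours in this order overlapped between libraries except at the steps from Tspan9 to Tspan14, from Tspan14 to Tspan6 and from Tspan2 to Tspan17. In Notch3IC cells Upk1b went from rank 3 to rank 8, at 19.3 ± 16.1, and Cd151 stayed first at 101.6 ± 7.28. Tspan18 reached 1.84 ± 0.945 in Notch3IC cells, which is rank 20 of 24 and near Tspan15 at 1.85 ± 0.801, so its level stayed low beside that of the leading members.

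Summed over the 24 tested members, the level in this unit was 584.1, 704.7, 712.1 and 643.8 in Sets 1 to 4 of the Control lines and 553.7, 652.4, 597.8 and 559.0 in the Notch3IC libraries. The sum was lower in the Notch3IC library of 4 of 4 sets while the groups overlapped. Upk1b made up 13.2% ± 3.44 of the sum in Control libraries and 3.14% ± 2.37 in Notch3IC libraries (SD, n = 4), and Tspan18 made up 0.319% ± 0.179 in Notch3IC libraries. With the longest coding transcript as the length, the Control mean of the sum was 1030 in place of 661, and Cd81 moved from rank 4 to rank 2.

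**Figure D4:**
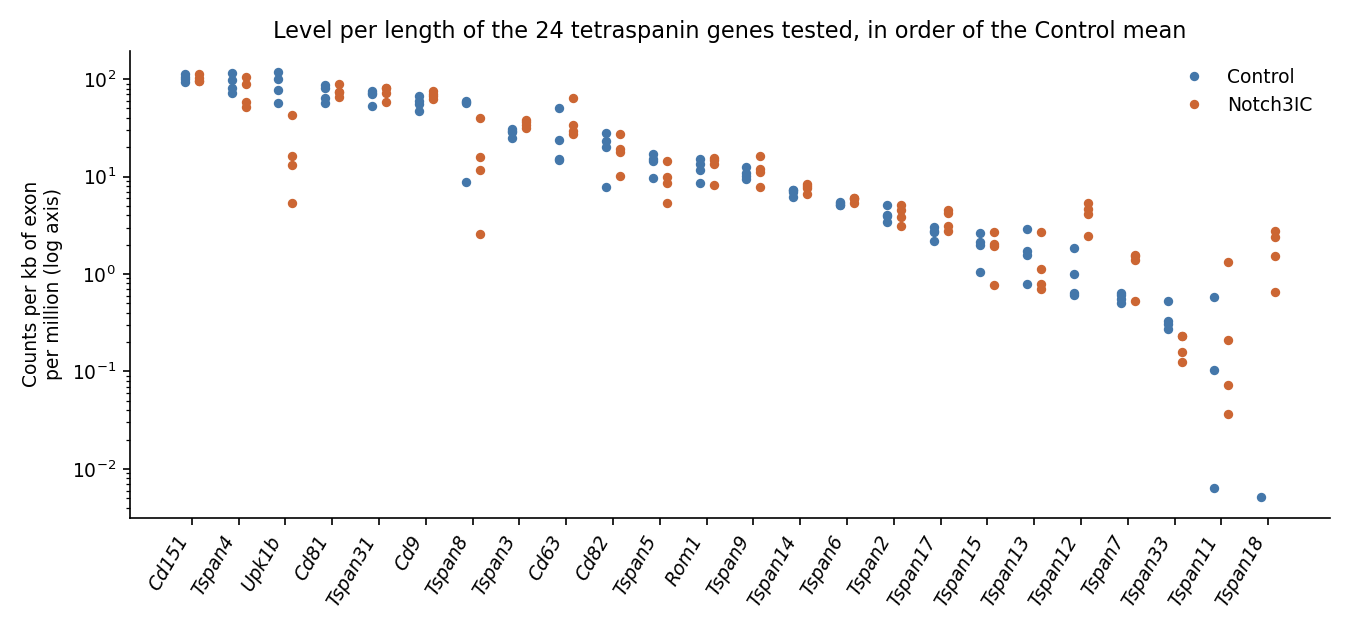
Level of each of the 24 tested members in CPM per kilobase of exon (log axis), 1 point per library, ordered by the Control mean. Libraries at 0 cannot be drawn on this axis, which leaves out the Control libraries of Sets 2, 3 and 4 for Tspan18 and that of Set 3 for Tspan11. Upk1b and Tspan8 extend lower in Notch3IC, Tspan12 lies higher, and Tspan18 is at the level of Tspan15 in Notch3IC only.

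Sets differed in many members, a comparison independent of the contrast that chose the family. In the fit with condition and set, 11 of the 23 members (47.8%, beside 21.6% of all genes tested) differed between sets at an adjusted p under 0.05 (edgeR quasi-likelihood test of the set terms), where the p-values measure the spread within sets. These were Cd63, Cd81, Cd82, Rom1, Tspan4, Tspan5, Tspan8, Tspan11, Tspan13, Tspan15 and Tspan31. In 6 of them both Set 1 libraries were below the other 6 libraries (26.1% of the 23 members, beside 16.5% of all genes tested), although for Tspan13 the gap, from 45.61 to 45.62 normalized counts, amounts to a tie. In Cd63 both were above (4.35% of the members, beside 20.9%). Without Set 1 none of the members differed between sets (edgeR, 7 at an unadjusted p under 0.05), and 2 of 12488 genes did. With 1 library of Set 1 left out none did either, beside 5 and 2 genes in all, and with 1 library of Set 3 or Set 4 left out 3 or 4 of the members did, beside between 662 and 1000 genes in all.

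Cd82, known as a suppressor of metastasis, had the lowest adjusted p of the members (0.0125). It was at 552.3, 1983, 1629 and 1422 normalized counts in Sets 1 to 4 of the Control lines and at 703.5, 1908, 1343 and 1263 in the Notch3IC libraries. Both libraries of Set 1 were lower than all others, with condition making little difference inside a set. Tspan8 (adjusted p = 0.0246), whose values are given above, had its lowest Control and its lowest Notch3IC library in Set 1. Tspan13 was at 45.6, 168.3, 90.0 and 99.1 in Control and 40.3, 155.3, 65.3 and 45.6 in Notch3IC (adjusted p = 0.0295), lowest in Set 1 and highest in Set 2. Tspan11 had the largest range between sets, at 12.9, 72.8, 0 and 0.793 in Control and 8.95, 165.6, 4.60 and 26.2 in Notch3IC (adjusted p = 0.0346). Its values were highest in both libraries of Set 2 and rested on few reads elsewhere.

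**Figure D5:**
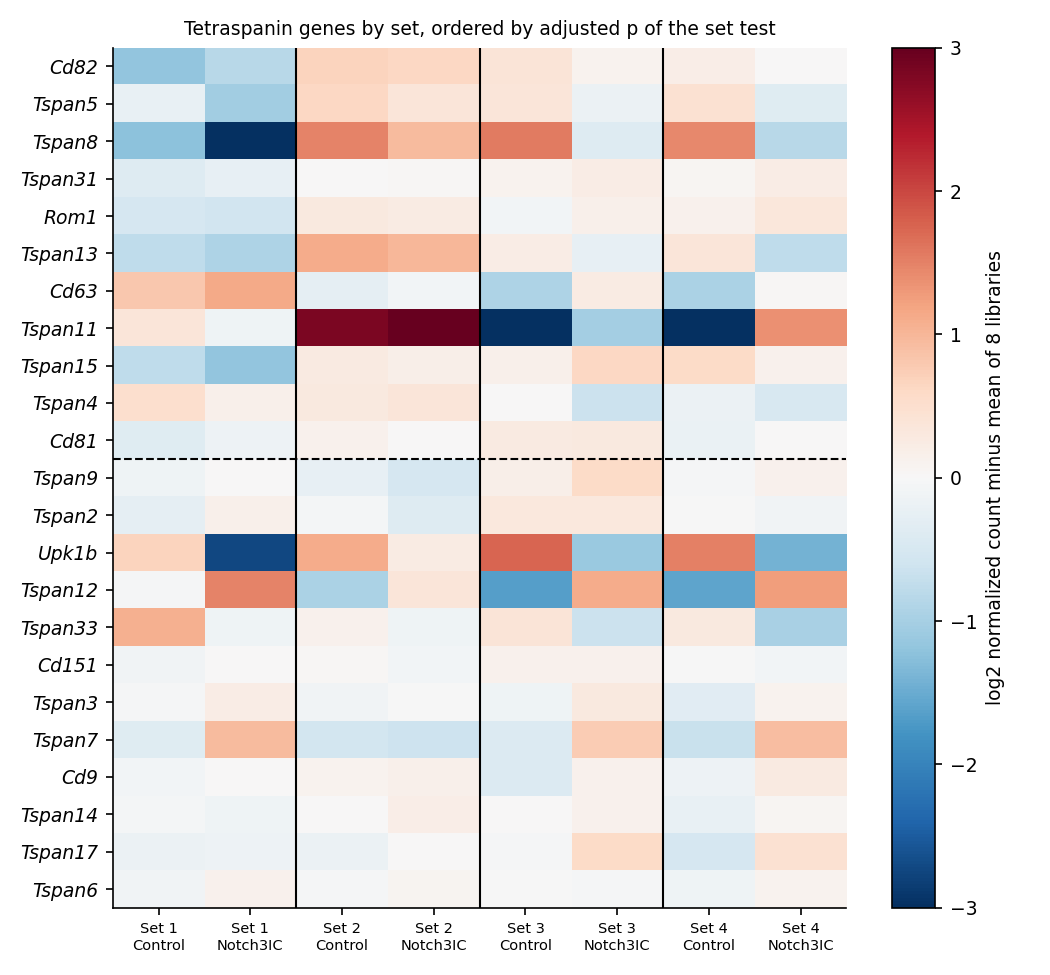
Heat map of the 23 tested members other than Tspan18 in the 8 libraries, colored by the log2 normalized count minus the mean of the 8 libraries (scale limited to -3 and 3), ordered by the adjusted p of the set test, with a dashed line under the 11 members called. Above the line Set 1 is the lowest set for Cd82, Tspan8, Tspan13 and Tspan15 and the highest for Cd63, and below it the contrast between Control and Notch3IC shows for Upk1b and Tspan12.

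Partner proteins of tetraspanins were given by a list of 43 genes, of which 32 were tested. With condition alone 3 were called higher (9.38%, beside 3.40% of all genes) and 2 lower (6.25%, beside 0.740%), and the median log2 fold change was 0.12. Egfr, the epidermal growth factor receptor, was at 2459, 3118, 2922 and 2783 normalized counts in Control cells and 5323, 3016, 9396 and 7766 in Notch3IC (log2 fold change 1.18, adjusted p = 0.0802). Itga7, an integrin subunit that binds laminin, was at 121.0, 33.4, 58.4 and 27.0 in Control and 504.4, 46.9, 731.1 and 596.4 in Notch3IC (log2 fold change 2.97, adjusted p = 0.0837). Both rose clearly in Sets 1, 3 and 4, whereas the Notch3IC library of Set 2 lay within the range of the Control libraries. Mmp14, a matrix protease anchored in the membrane, was at 6786, 5956, 5079 and 4517 in Control and 10940, 7004, 19340 and 16550 in Notch3IC, without overlap (log2 fold change 1.27, adjusted p = 0.0604).

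Itga3, the laminin-binding integrin subunit that pairs with Cd151, was at 3699, 3463, 4575 and 5516 normalized counts in Control cells and 1078, 2766, 1689 and 1721 in Notch3IC. It fell without overlap between the groups (log2 fold change -1.25, adjusted p = 0.0488), while Cd151 gave the values above. Icam1, an adhesion receptor for leukocytes, was at 369.8, 685.2, 712.1 and 587.5 in Control and 242.7, 290.1, 370.6 and 258.5 in Notch3IC (log2 fold change -1.02, adjusted p = 0.0492), lower in 4 of 4 sets with the Control library of Set 1 at the edge of the Notch3IC range. The annotation places 11.7% of the exon bases of Icam1 on exons of Gm47079 on the opposite strand. With the block 4 partners were called higher, Gpr56 in addition (12.5%, beside 5.19% of all genes), and 1 lower, Itga3 (3.12%, beside 2.53%). Icam1 missed the fold limit there, at a fold change of 0.501 against the 0.494 of condition alone, with an adjusted p of 0.0203. With condition alone, the calls of Egfr, Itga7, Mmp14 and Itga3 were lost without any 1 library of Set 3 or Set 4, and that of Icam1 without any of them but the Notch3IC library of Set 3. The calls of Egfr, Itga7, Mmp14 and Icam1 were also lost without the Control library of Set 2, those of Egfr, Itga7 and Icam1 without the Notch3IC library of Set 1, and that of Egfr without the Control library of Set 1. For Itga7 the log2 fold change moved to 3.57 when the Set 1 Control was left out, and to 2.27 in the block fit lacking Set 4. Orai1, the calcium channel linked to Tspan18, was lower in the Notch3IC library of 4 of 4 sets, with a log2 fold change of -0.36 (interval -0.75 to 0.03, adjusted p = 0.305) with condition alone and -0.38 (-0.64 to -0.11, adjusted p = 0.069) with the block.

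Markers of the cell types that the cultures could hold were read beside these values. Wt1, a defining gene of the ovarian surface and mesothelium, was at a mean of 12340 ± 4439 (SD, n = 4) normalized counts in Control cells, against 7082 ± 2529 in Notch3IC cells. Its groups overlapped, with a log2 fold change of -0.80 (edgeR, adjusted p = 0.283 with condition alone and 0.0275 with the block). DESeq2 gave an adjusted p of 0.158. Of 13 ovarian surface and mesothelial markers, 12 were tested, 1 was called lower with condition alone (edgeR, 8.33%, beside 0.740% of all genes) and none higher (edgeR, 5 of the 12 at an unadjusted p under 0.05 in either direction), with a median log2 fold change of -0.77. DESeq2 called 4 of the 13 lower and none higher (30.8%, beside 1.38% of all genes lower), namely Krt19 (log2 fold change -2.14, adjusted p = 0.00519), Msln (-2.61, 0.000199), Upk3b (-1.73, 0.0467) and Krt7 (-3.23, 0.0463), of which edgeR's filter had left out Krt7. Most Control reads of Krt7 came from Set 3, with 5, 2, 46 and 7 counts in the Control libraries and 1, 1, 2 and 2 in the Notch3IC libraries. Msln, mesothelin, was at 1191, 1582, 3000 and 3625 normalized counts in Control cells and 82.8, 779.5, 313.6 and 381.0 in Notch3IC, and fell without overlap (log2 fold change -2.60, adjusted p = 0.0625, between 0.162 and 0.195 without any 1 library of Sets 3 and 4, and log2 fold change -3.32 without Set 2). Set by set its log2 ratio was -3.84, -1.02, -3.26 and -3.25, beside -3.40, -0.85, -2.85 and -2.93 for Upk1b. With the block 5 of the markers were called lower, namely Amhr2, Gata6, Krt19, Msln and Upk3b (41.7%, beside 2.53% of all genes). In the block fits with 1 set left out, the adjusted p of Msln lay between 0.000113 and 0.166. Over all genes the block called 315 lower, and 23, 22 and 30 without Sets 1, 3 and 4. Vim was the most abundant of the list and was higher in Notch3IC in 4 of 4 sets (log2 fold change 0.43, adjusted p = 0.613, with condition alone, and 0.48, adjusted p = 0.0327, with the block), as was Lhx9 (block 0.38, adjusted p = 0.136). With Vim the list summed to 119400, 93360, 107100 and 106400 normalized counts in Control cells and 122100, 88080, 82690 and 80980 in Notch3IC cells, so that Set 1 was slightly higher in Notch3IC. Without Vim the sums were 33700, 52100, 75200 and 72400 in the Control libraries and 17300, 36100, 33100 and 27500 in the Notch3IC libraries. The part of this list in the fall of Upk1b was not tested, and in RNA from whole cultures fewer cells of a type and less RNA per cell cannot be told apart.

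Among markers of other cell types, epithelial keratin was present, whereas leukocyte and endothelial lists were low. Epcam had between 2 and 12 counts in any library, and of 6 epithelial adhesion markers 2 were tested and none called with condition alone (edgeR, 1 at an unadjusted p under 0.05, while DESeq2 and the block each called Krt14 lower). Over all genes 3.40% were called higher and 0.740% lower with condition alone, and 18.4% had an unadjusted p under 0.05. DESeq2 called 1.38% of its genes lower and the block 2.53%. Krt14 was the most abundant of this list, at between 1623 and 2158 normalized counts in Control cells, and Cdh1 had a Control mean of 428.3 ± 241.2 (SD, n = 4). In Sets 1 to 4 the sum of the list was 1941, 2772, 2003 and 2750 in Control cells, against 829.9, 2328, 993.2 and 721.5 with Notch3IC. It was thus lower in Notch3IC in 4 of 4 sets, as Upk1b and Tspan8 were, but without Krt14 it was lower in Sets 1, 2 and 4 and higher in Set 3 (127, 614, 380 and 654 against 63.7, 528, 398 and 273). The part of this list in the values of Upk1b and Tspan8 was not tested. Of 13 leukocyte markers 4 had no counts in any library and 3 were tested, and the sum of the list lay between 117.4 and 213.3, with Cd14 the most abundant. Ptprc, the defining leukocyte marker, had 0 counts in 7 of 8 libraries and 2 in the Notch3IC library of Set 1. Csf1r had 9, 10, 7 and 9 counts in the Control libraries and 36, 10, 22 and 28 in the Notch3IC libraries. Like Tspan18 and Alx4, it passed the filter on low counts only through its Notch3IC libraries, so this difference is described without a test. Its fitted log2 fold change was 1.52, from a Control mean of 8.67 normalized counts. Cd68 (log2 fold change -0.40) and Cd14 (-0.61) were not called and were lower in Notch3IC in 4 of 4 sets, as was the sum of the leukocyte list. Without Cd14 the sums were 57.5, 93.1, 90.9 and 129 in the Control libraries and 85.0, 85.0, 90.1 and 127 in the Notch3IC libraries. That sum was thus higher in Notch3IC in Set 1 and nearly equal in Sets 3 and 4. Of 7 endothelial markers 2 were tested and none called (edgeR, 0 at an unadjusted p under 0.05, and none by DESeq2). This stands beside 3.40% of all genes higher, 0.740% lower and 18.4% at an unadjusted p under 0.05, and 2 genes are too few to set against these shares. Pecam1 was the most abundant of this list, and Cdh5, a defining endothelial gene, had between 0 and 2 counts in any library. The endothelial sum was 22.8, 38.2, 24.9 and 13.5 in the Control libraries and 51.5, 32.2, 30.4 and 41.4 in the Notch3IC libraries. It was thus higher in Notch3IC in Sets 1, 3 and 4 and lower in Set 2, at few reads. The part of this list in the values of Tspan18 was not tested.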

How the data were processed

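Each library had a table in which the authors deposited the raw read counts of every gene symbol. The submitters' processing notes name TopHat, Cufflinks, DESeq and the build mm9, and the annotation, versions and strandedness are not given in the sources used here. The members and lists were chosen with earlier results of these data known. Notch3IC was compared with Control in 12430 genes with edgeR 4.0.16 in R 4.3.3 (TMM, filterByExpr, robust quasi-likelihood F test, condition as the only term, Benjamini-Hochberg over all genes tested), with the study's thresholds. Standard errors were derived from the log2 fold change and F. The biological coefficient of variation was 26.3%, and 14.1% with the set block. Alternatives were DESeq2 1.42.0, RLE, upper-quartile and library-total scaling, other filters, the block, and leaving out libraries and sets. The block without each set and another gene length were added after seeing the data. The set numbers pair the libraries, since the lines of a set were made as a matched pair: deviations from the group means correlated at 0.804, 0.398, 0.565 and 0.409 within Sets 1 to 4 and between -0.501 and 0.372 across sets.

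Coordinates, lengths and overlaps are from GRCm38 with GENCODE M21, which holds all 31 members, and not from the authors' build. Normalized counts are scaled to a mean TMM library size of 23336479. Values by library are given for Tspan18, members called in either fit, the 5 with the highest Control level per length, tested TspanC8 members, up to 4 members called between sets, Adam10 and called partners. Other genes were named after their values were seen. Protein sequences are not used here, so the printed promoters were chosen afterwards. Nothing states that lines came from separate animals, so p-values with condition alone measure the spread between these infections. Those with the block measure how the difference between Notch3IC and Control varies across the sets. Tests were tried on simulated data.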

Additional observations from a re-analysis of the deposited data

Results flagged for a closer look

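In groups of 4 libraries, a library was noted when its gap to the nearest other library, divided by the whole range of its group, passed Dixon's 95% limit. Of 49 groups searched 2 passed, where chance flags about 1 in 20, or 2.5 groups. Tspan11 was at 165.6 normalized counts in the Notch3IC library of Set 2, against 4.60 to 26.2 in the other Notch3IC libraries. Tspan8 was at 346.0 normalized counts in the Control library of Set 1, against 2233 to 2391 in the other Control libraries.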

How the results depend on the processing

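Under RLE, upper-quartile and library-total scaling, no expression filter and at least 10 counts in every library, 1 member was called higher and 1 lower, Tspan12 and Upk1b, as with the chosen settings. DESeq2 called 2 members higher and 2 lower, and so did the set block, while the block without a fold limit gave 4 and 4. At an adjusted p under 0.05, 1 member was called higher and none lower, and 2 partners were called lower and none higher. Over all 12430 genes, 290 were called higher and 48 lower at that limit. Without Sets 1, 2, 3 and 4 the block called 0, 2, 0 and 1 members higher and 0, 3, 0 and 0 lower, beside 46, 904, 59 and 129 genes higher and 23, 426, 22 and 30 lower in all. For partners the block called 1 lower, and 8 higher and 6 lower without a fold limit (25.0% and 18.8%, beside 14.9% and 12.1% of all genes). Without Sets 1, 2, 3 and 4 it called 0, 6, 0 and 0 partners higher and 1, 1, 0 and 0 lower. Leaving out 1 library or 1 set gave between 0 and 2 members higher, 0 and 1 lower, 0 and 6 partners higher, 0 and 2 lower, 0 and 14 members that differed between sets (14 without the Control library of Set 2, where 36.4% of all genes did), and a fitted log2 fold change of Tspan18 between 9.37 and 11.45 (11.25 with the block without Set 1). The summed level was 1030 with the coding transcript as length. With at least 10 counts in every library Tspan18 could not be fitted. No direction turned for any called member. Where a call was lost the cause was not tested. With 4 libraries a group and the spread between them, differences smaller than the intervals given were not detectable in the fit that gave them. The values of Tspan18 rest on 137 to 537 reads in the Notch3IC libraries.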

Other observations

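The partners also differed between sets. Of the 32 partner genes tested, 12 (37.5%, beside 21.6% of all genes tested) differed between sets at an adjusted p under 0.05 (edgeR quasi-likelihood test of the set terms), among them Adam10, the integrin subunits Itga5 and Itgb1, the hyaluronan receptor Cd44 and the hepatocyte growth factor receptor Met. Itgb1 had the lowest adjusted p of these (0.0111). Without Set 1 none of the 30 partners then tested differed between sets (edgeR, 6 at an unadjusted p under 0.05, beside 2 of 12488 genes called in all). The count was also 0 without either library of Set 1, 3 or 4 without 1 library of Set 3 or Set 4, and 20 without the Control library of Set 2, beside 5 and 2, between 662 and 1000, and 4578 genes in all.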
